A study of Homo sapiens with 8 samples.

Results

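Promoters whose H3K4me3 peak was wider in HL-60 cells treated with all-trans retinoic acid (ATRA) than in control cells were examined. A protein-coding gene was included when its transcription start site (TSS) lay under an H3K4me3 peak in all 4 H3K4me3 libraries and the smaller of the 2 peak widths in ATRA-treated cells was at least 1.5 times the larger of the 2 widths in control cells. Of 20136 protein-coding genes, 9490 had a peak over the TSS in all 4 libraries and 169 met the width rule (1.78% of 9490). These 169 genes shared 147 distinct control peaks, of which 125 covered the TSS of 1 such gene and 22 the TSS of 2. The promoters were thus chosen by their peak widths in the 4 H3K4me3 libraries, and these widths are described here without a test. The HL-60 line, established from a human promyelocytic leukemia, was given 1 µM ATRA, dissolved in ethanol, or the same volume of ethanol alone for 4 days, with medium and agent renewed once in between. For both H3K4me3 and H3K27ac, chromatin was immunoprecipitated from 2 ATRA-treated and 2 control samples, giving 8 libraries. The labels number the replicates 1 and 2 and do not say whether these were separate cultures.

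H3K4me3, the trimethylation of lysine on histone H3, sits on nucleosomes around active transcription start sites and usually spreads further into the gene than upstream of it. H3K27ac, an acetylation of the same histone, marks active promoters and enhancers. Long H3K4me3 domains are known from genes that define the identity of a cell. ATRA binds retinoic acid receptors and drives HL-60 cells to mature towards granulocytes, which carry receptors for microbes, chemokines and cytokines and large numbers of lysosome-related granules.

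The H3K4me3 libraries held between 13241 and 16487 peaks over 47.7 to 63.2 Mb, with control replicate 2 lowest in both. Over all 9490 promoters the median width was 5788 and 5775 bp in the ATRA libraries and 5425.5 and 4701 bp in the control libraries. The deposited peaks give positions without read counts, so the depth is unknown. Of 10 genes of granulocyte precursors, 7, MPO among them, had H3K4me3 at the TSS in all 4 libraries, whereas ELANE and AZU1 had none. PRTN3 had it in both ATRA libraries and in neither control library. Of 8 maturation genes, ITGAM and CYBB were covered in both ATRA libraries and in neither control library, CSF3R in all 4 and the other 5 in none. The listed epithelial (4 of 4) and fibroblast (3 of 3) markers were uncovered in every library, as were 5 of 6 erythroid, 4 of 6 T cell and 4 of 5 B cell markers. In bulk chromatin, more cells carrying a mark and a longer marked stretch per cell cannot be told apart.

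Sequence from the reference genome (GRCh37, the build of the peak files) shows what stands at some of these start sites. The first set holds bases upstream of the TSS with a match to GAGGAAGT, the core of the site bound by the myeloid factor PU.1, or to its reverse complement. All stretches are written 5′ to 3′ on the strand of the gene, and capitals mark the matches. The genes were chosen after their matches and widths had been seen. The BCL2A1 stretch (chr15:80263642-80263737, minus strand) also holds the interferon-stimulated response element (ISRE), written here as TTTC, any 2 bases and TTTC, and the BIRC3 stretch (chr11:102187996-102188080, plus strand) also holds the kB site of NF-kB (GGG, any 2 bases and TTTCC) on the opposite strand. The matches in each stretch do not overlap. The B3GNT8 stretch lies at chr19:41934636-41934670, that of C1RL at chr12:7261835-7261879 and that of CFAP53 at chr18:47792949-47792996, all on the minus strand.
BCL2A1: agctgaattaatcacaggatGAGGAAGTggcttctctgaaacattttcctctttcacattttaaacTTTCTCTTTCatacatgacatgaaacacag
BIRC3: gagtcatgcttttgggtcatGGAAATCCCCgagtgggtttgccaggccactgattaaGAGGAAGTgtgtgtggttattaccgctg
B3GNT8: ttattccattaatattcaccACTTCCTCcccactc
C1RL: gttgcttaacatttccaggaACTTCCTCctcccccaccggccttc
CFAP53: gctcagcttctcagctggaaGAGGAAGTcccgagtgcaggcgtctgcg

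The ISRE letters alone stood upstream of 2 further genes shown here, which encode a receptor and a ligand of immune cells. TNFRSF1B (chr1:12227018-12227047, plus strand) has the forward letters, and TNFSF9 (chr19:6530823-6530872, plus strand) the reverse complement. In TNFRSF1B the match ends at the base before the TSS.
TNFRSF1B: tggcccgctggggcgcgggcTTTCGCTTTC
TNFSF9: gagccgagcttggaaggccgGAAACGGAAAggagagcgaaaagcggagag

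The widened promoters ranged from those without any CpG to CpG islands. The last 100 bases before the TSS are shown for 4 of them, with each CpG in capitals. CCR1 (chr3:46249805-46249904, minus strand) and GIMAP6 (chr7:150329737-150329836, minus strand) have no CpG there, CTSD (chr11:1785804-1785903, minus strand) has 2 and LAMP1 (chr13:113951454-113951553, plus strand) has 21.
CCR1: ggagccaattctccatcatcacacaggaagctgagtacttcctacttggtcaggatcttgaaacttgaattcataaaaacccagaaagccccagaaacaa
GIMAP6: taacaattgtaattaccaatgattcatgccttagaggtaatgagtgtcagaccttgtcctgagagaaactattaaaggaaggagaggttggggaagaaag
CTSD: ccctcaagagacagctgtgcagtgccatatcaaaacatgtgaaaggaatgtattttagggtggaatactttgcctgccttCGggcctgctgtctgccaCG
LAMP1: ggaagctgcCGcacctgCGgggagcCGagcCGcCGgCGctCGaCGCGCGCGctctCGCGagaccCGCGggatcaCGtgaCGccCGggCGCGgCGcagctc

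At the 169 promoters the median peak width was 6002 and 5931 bp in the ATRA libraries and 3204 and 2817 bp in the control libraries. In control cells these peaks were thus short for a promoter, and in ATRA-treated cells they were near the typical width. The rule divides by the larger control width, so by its construction it favors short control peaks. Of the 9490 promoters, the lowest quartile of control width (378 to 4372 bp) held 132 of the 169 (5.56% of that quartile), compared with 17, 10 and 10 in the higher quartiles. The ratio of the smaller ATRA width to the larger control width had a median of 1.70 and reached 3.66, with 37 promoters at 2 or more and 8 at 3 or more. The opposite rule, in which the control peaks were the wider ones, was met by 18 genes (0.19% of 9490). When each width was divided by the median width of its library, the numbers were 93 wider and 35 narrower in ATRA-treated cells, and without control replicate 2 they were 252 and 151.

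**Figure D1:**
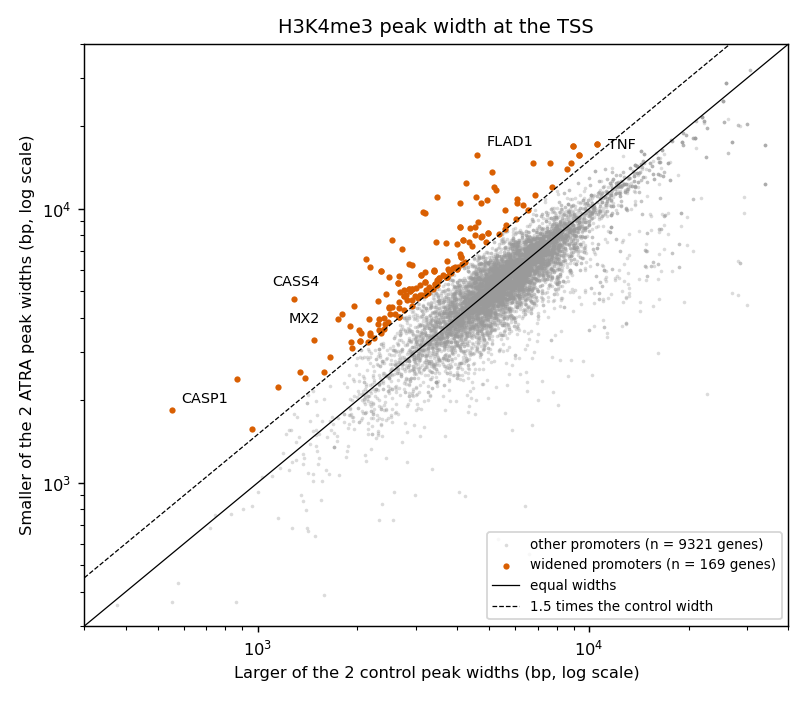
H3K4me3 peak width over the TSS of 9490 protein-coding genes, with the larger control width on the x axis and the smaller ATRA width on the y axis, both in bp on log scales. The 169 widened promoters (orange) lie on or above the dashed line at 1.5 times the control width, most of them at control widths under 4372 bp, and the other promoters (gray) lie below it.

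The libraries of 1 replicate number can be read at promoters chosen in the other. These are the same 4 libraries that the width rule used, so the reading gives no separate support for the 169 promoters. Within number 1, 496 promoters had an ATRA width of at least 1.5 times the control width. Of these, 266 (53.6%) passed the same ratio in the libraries numbered 2, where 17.9% of all 9490 promoters passed it, and 474 of the 496 were wider in ATRA-treated cells there (84.1% of all promoters were). In the other direction, 1699 promoters were chosen within number 2, and 266 of them (15.7%) passed in the libraries numbered 1, where 5.23% of all promoters passed. The number 2 pair thus contributed many promoters that the number 1 pair did not share. Over all 9490 promoters the median ratio was 1.05 in number 1 and 1.20 in number 2.

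CASS4, which encodes a scaffold protein of cell adhesion signaling, had the largest ratio. Its peak measured 7228 and 4709 bp in the ATRA libraries and 1288 and 595 bp in the control libraries (chr20:54985936-54993163 in ATRA replicate 1 and chr20:54986656-54987943 in control replicate 1), a ratio of 3.66. The ATRA peak ran 5995 bp into the gene, and the control peak 775 bp. At CASP1, the protease that activates interleukin-1β, the widths were 3041 and 1849 bp against 552 and 431 bp. At CCR1, a receptor for inflammatory chemokines, they were 6276 and 6159 bp against 2188 and 1475 bp. These 3 peaks were short in both control libraries, and in each case the ATRA and control widths were far apart.

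Several further genes had large ratios at differing peak lengths. SCPEP1, a serine carboxypeptidase, had 9849 and 9722 bp in ATRA-treated cells and 3165 and 2737 bp in control cells. CD300LB, an activating receptor of myeloid cells, had 15102 and 13623 bp compared with 5115 and 4369 bp. GHRL, the gene of the hormone ghrelin, had 6859 and 6577 bp against 2118 and 618 bp, so the control replicates differed more than the ATRA replicates. GIMAP6, a GTPase of the immunity-associated family, had 2970 and 2388 bp against 822 and 867 bp, and SLCO5A1, of the organic anion transporter family, had 9676 and 9769 bp against 3203 and 3070 bp.

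**Figure D2:**
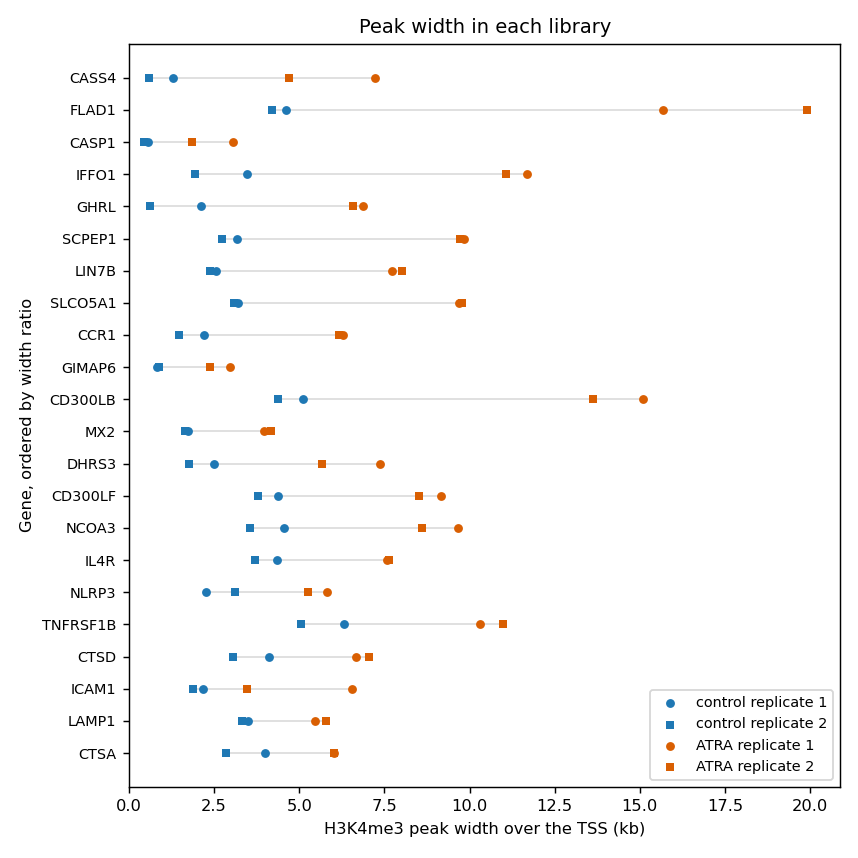
H3K4me3 peak width over the TSS (x axis, kb) in each library for 22 widened promoters, ordered by width ratio from CTSA at the bottom to CASS4 at the top. Circles are replicate 1 and squares replicate 2, blue is control and orange is ATRA, and by the rule no orange point lies left of a blue one.

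MX2, an interferon-induced antiviral GTPase, had 3966 and 4162 bp in ATRA-treated cells and 1744 and 1632 bp in control cells. It was the only widened promoter among 19 listed interferon-stimulated genes with a peak in all 4 libraries (5.26%, beside 1.78% of all promoters). Widened genes outside that list, such as SAMHD1, were not counted. NLRP3, the inflammasome sensor, had 5820 and 5259 bp against 2267 and 3102 bp. The control replicates of NLRP3 were in the opposite order to those of most genes named here, with replicate 2 the wider.

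Receptor and adhesion genes were also found. IL4R, the receptor of interleukin-4, had 7565 and 7629 bp against 4332 and 3702 bp, and TNFRSF1B, a receptor of tumor necrosis factor, had 10321 and 10972 bp against 6317 and 5048 bp. They were the 2 widened promoters of 14 cytokine and growth factor receptors (14.3%, beside 1.78% of all promoters). Of 13 adhesion and migration genes CCR1 and ICAM1 were widened (15.4%), and ICAM1, the ligand of leukocyte integrins, was uneven in ATRA-treated cells, with 6558 and 3471 bp against 2182 and 1882 bp. Of 23 listed immune recognition genes, NLRP3 and the inhibitory myeloid receptor CD300LF were widened (8.7%). CD300LF had 9153 and 8514 bp against 4365 and 3773 bp. The widened receptor gene CD300LB, described above, was not in this list. These 3 lists did not widen as a whole. Their median ratios were 0.997 for the cytokine and growth factor receptors, 0.9275 for adhesion and migration and 0.893 for immune recognition. Over all promoters the median ratio was 0.977.

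Among genes of the retinoid pathway, 2 of 16 were widened (12.5%, beside 1.78% of all promoters). With so few genes in each of these lists, 1 or 2 promoters set the share. DHRS3, which reduces retinal to retinol, had 7355 and 5666 bp in ATRA-treated cells and 2492 and 1770 bp in control cells (chr1:12672424-12679778 in ATRA replicate 1). NCOA3, a coactivator of nuclear receptors, had 9675 and 8600 bp against 4539 and 3552 bp. Lysosome genes contributed 3 of 36 (8.33%). The protease CTSD had 6676 and 7033 bp against 4105 and 3057 bp. CTSA, a protective protein of lysosomal enzymes, had 6022 and 6029 bp against 3992 and 2838 bp, and the membrane glycoprotein LAMP1 had 5455 and 5771 bp against 3497 and 3318 bp. All 3 lay close to the width threshold, and LAMP1 and CTSA, like NLRP3 and ICAM1, no longer met it when widths were divided by the library median.

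No promoter was widened among 48 listed genes of DNA replication and mitosis, 74 cytosolic ribosomal protein genes and 5 granule and oxidase genes. The share over all promoters was 1.78%, so 0 in lists of this size does not set them apart. The first list is not complete. The DNA polymerase subunit gene POLE2 and the cell cycle gene CKS1B lie outside it and were widened. The granule and oxidase list had 30 genes, most of them without a peak in all 4 libraries, so the width rule could not include them. Of 320 genes whose symbols mark them as zinc finger genes, 15 were widened (4.69%, beside 1.78% of all promoters), a group formed after the values had been seen. By chromosome the share was highest on chromosome 20, with 12 of 264 promoters (4.55%), and lowest on chromosome 14, with 2 of 339 (0.59%). Over all chromosomes it was 1.78%. These 2 are the extremes of all chromosomes, and no difference between chromosomes was tested. Genes were counted and not loci, and some share a control peak, such as CTSA and NEURL2 on chromosome 20.

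The peaks gained length mostly on the gene side of the TSS. At each of the 147 loci the added length was the smaller ATRA extent minus the larger control extent, taken separately on each side. Its median was 1378 bp on the gene side and 523 bp upstream, and the gene side gained more at 115 loci (78.2%), compared with 54.4% of all 7653 loci with a peak in all 4 libraries. The 2 shares have unlike bases, because neither side grew at 40.1% of all loci, a state that the rule left at 0 of the 147. Both sides grew at 108 loci (73.5%, compared with 14.4% of all loci), the gene side only at 29 (19.7%, 27.2%) and the upstream side only at 10 (6.8%, 18.2%). At MX2 the peak reached 3512 and 3754 bp into the gene in ATRA-treated cells and 1507 and 1629 bp in control cells, and upstream it gained 171 bp. At DHRS3 the gain was 3162 bp on the gene side and 12 bp upstream. IL4R was among the exceptions, with 1955 bp added upstream and 1007 bp in the gene.

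**Figure D3:**
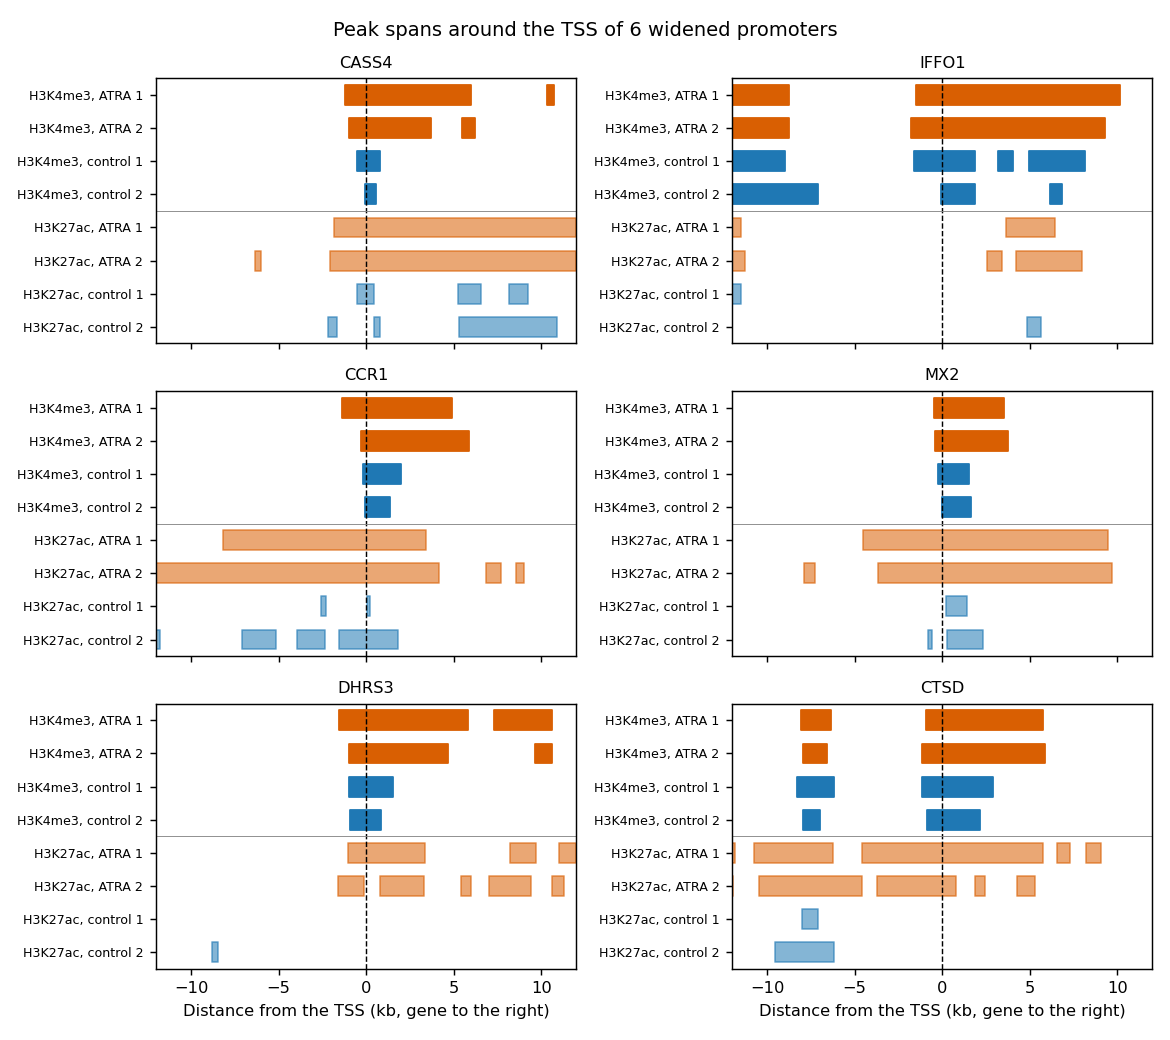
H3K4me3 peaks (upper rows, solid) and H3K27ac peaks (lower rows, pale) within 12 kb of the TSS of 6 widened promoters, drawn in kb from the TSS with the gene to the right. ATRA libraries are orange and control libraries blue. At CASS4, CCR1, MX2, DHRS3 and CTSD the ATRA H3K4me3 peak extends further to the right than the control peak, and at IFFO1 it spans separate control peaks.

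Some wide peaks arose where control cells had several peaks. At 33 of the 169 promoters (19.5%) the ATRA peak overlapped at least 2 control peaks within both replicate numbers, compared with 1.5% of the 9490. They belonged to 27 loci, and at 87 loci the ATRA peak overlapped a single control peak within both numbers. IFFO1, of the intermediate filament family, had 11683 and 11083 bp in ATRA-treated cells and 3468 and 1944 bp in control cells, and its ATRA peak overlapped 3 control peaks within number 1 and 2 within number 2. At FLAD1, the FAD synthase, the peaks of 15693 and 19918 bp also covered the neighboring start sites of CKS1B and SHC1, whereas the control peaks of 4602 and 4202 bp held the FLAD1 start site alone. The ATRA peak held more protein-coding start sites than the control peak in both replicates at 15 genes (8.88%, compared with 0.242% of the 9490). Both counts use the peak spans that the width rule used. The rule itself favors ATRA peaks that take in a neighboring peak or start site, so the higher shares partly follow from the choice.

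The longest widened peak covered the TNF and LTB genes, which encode tumor necrosis factor and lymphotoxin-β and are neighbors on chromosome 6. It measured 20052 and 17296 bp in the ATRA libraries. In control replicate 1 a single peak of 10584 bp covered both start sites, and in control replicate 2 TNF lay under a peak of 4529 bp and LTB under another of 2212 bp. When peaks within 1000 bp of each other were joined, the ratio at TNF and LTB fell from 1.63 to 0.96, so their inclusion depends on gaps in the control peaks. Under the same joining FLAD1, IL4R, TNFRSF1B, LAMP1, CTSA and CARS2 also fell below 1.5.

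**Figure D4:**
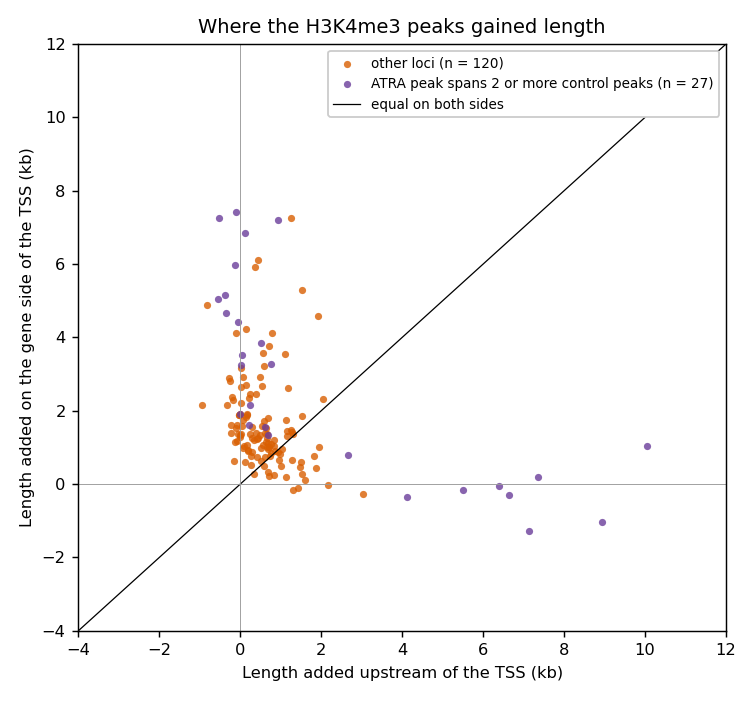
Length added to the H3K4me3 peak upstream of the TSS (x axis, kb) and on the gene side (y axis, kb) at 147 loci. Of the points, 115 lie above the line of equal gain. The 27 loci whose ATRA peak spans 2 or more control peaks (purple) include those with the longest gains on either side.

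H3K27ac was measured in separate libraries and was not used to choose the promoters. Within 5 kb of the TSS, the median length under H3K27ac peaks at the 169 promoters was 1908 and 2344 bp in the ATRA libraries and 454 and 877 bp in the control libraries. Over all 9490 promoters it was 1900.5 and 2517 bp against 1235.5 and 1840.5 bp. Both ATRA libraries were above both control libraries at 93 of the 169 (55%), compared with 33.2% of all promoters, and both were below at 1 (0.592%, compared with 4.08%). Among promoters in the lowest quartile of control width, a comparison added after the data had been seen, the share was 50.0% of 132 widened and 26.6% of 2242 other promoters. In that quartile the median length was 1403.5 and 1761 bp in the ATRA libraries and 0 and 629 bp in the control libraries at the widened promoters, and 667 and 1238 bp against 0 and 696 bp at the others. The ATRA H3K27ac libraries held more peaks overall (28200 and 39332) than the control libraries (15457 and 29616), and no promoter was tested, because 0.33 is the smallest two-sided p that an exact test of 2 against 2 libraries can give. With H3K27ac peaks of −log10 q of at least 5, which kept 12.8% to 16.9% of the peaks of a library, both ATRA libraries were above at 2 of the 169 (1.18%, compared with 2.31% of all promoters), and the difference in shares was no longer seen.

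The largest rises in H3K27ac were found at SAMHD1, MX2, CTSD, ENSG00000250644 and SLCO5A1. SAMHD1, a phosphohydrolase that depletes nucleotides needed by viruses, had 7702 and 9187 bp in the ATRA libraries, and the control libraries had none. MX2 had 9538 and 8649 bp against 1185 and 2309 bp. CTSD had 9607 and 6232 bp, again with none in either control library, and ENSG00000250644 shares its H3K4me3 peak. SLCO5A1 had 6323 and 8643 bp against 0 and 200 bp.

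DHRS3 and ICAM1 likewise had no H3K27ac within 5 kb in control cells, with 4376 and 4011 bp and with 2304 and 2807 bp in ATRA-treated cells, respectively. In contrast, the groups overlapped at CASP1 (451 and 3358 bp against 0 and 3847 bp), so a wider H3K4me3 peak was not always accompanied by more H3K27ac. MTHFSD was the only widened promoter with less H3K27ac in both ATRA libraries, with 382 and 375 bp against 596 and 442 bp, a gap of 60 bp between the nearest libraries. At the TSS itself, H3K27ac was present in both ATRA and neither control library at 21 of the 169 (12.4%, compared with 4.77%), and the reverse was seen at 0 (0.717% of all promoters).

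Summed over loci, more of the bases gained by H3K4me3 lay under H3K27ac peaks in the ATRA libraries than in the control libraries. Bases under the ATRA peaks of both replicates and under no control peak summed to 302.587 kb at the 147 loci. These loci lay under 143 distinct peaks in each ATRA replicate, so gained bases of a peak shared by several loci were counted more than once. H3K27ac peaks covered 30.8% and 35.5% of the gained bases in the ATRA libraries and 5.43% and 13.2% in the control libraries. By locus, the median length of gained bases under H3K27ac peaks was 0 and 75 bp in the ATRA libraries. It was 0 bp in both control libraries, so the summed shares rest on part of the loci. In the core shared with the control peaks the shares were 50.7% and 58.7% against 23.5% and 34.1%. At the other 7506 loci, gained bases were covered to 8.90% and 13.9% against 1.56% and 5.14%. At both sets of loci the ATRA libraries exceeded the control libraries, and the share of gained bases was higher at the widened loci in all 4 libraries. In the core of the other loci the shares were 41.1% and 51.1% against 30.5% and 41.2%, so the control libraries had less H3K27ac over the core at the widened loci. The gained bases were 64.8% intronic, 11.9% exonic and 23.3% outside protein-coding genes. Their CpG density was 14.8 per kb and their GC content 46.0%, compared with 37.8 per kb and 52.2% in the core.

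**Figure D5:**
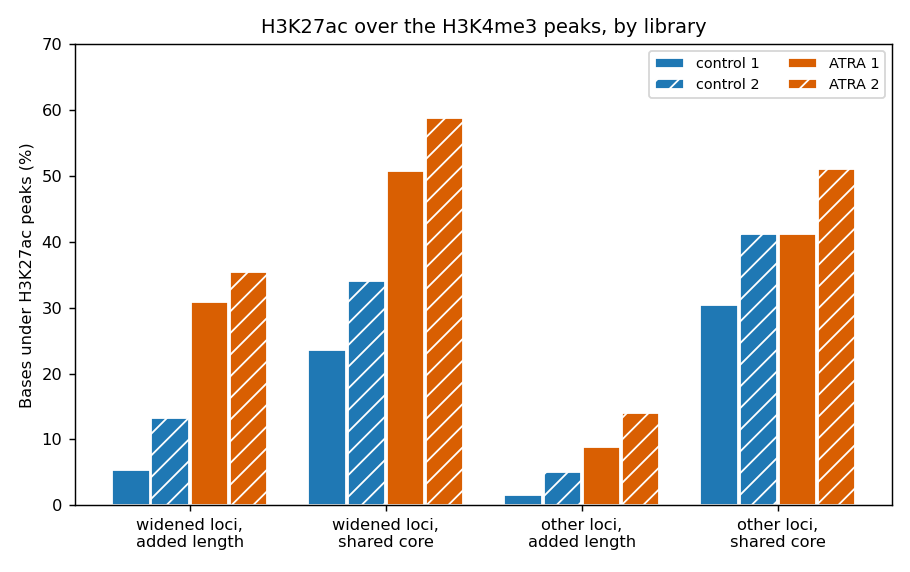
Percent of bases under H3K27ac peaks (y axis) in each H3K27ac library, for the length added to H3K4me3 peaks in ATRA-treated cells and for the core shared with control peaks, at the 147 widened loci and the 7506 other loci. Blue bars are control and orange bars ATRA libraries, with replicate 2 hatched. In the added length at widened loci the ATRA libraries reach 30.8% and 35.5% and the control libraries 5.43% and 13.2%.

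The base composition of the promoters was taken from 250 bases before the TSS to 50 after it. The ratio of observed to expected CpG had a median of 0.76 at the 169 promoters and 0.84 over all 9490, and it was under 0.6 at 48 (28.4%, compared with 15.8%). Among named genes, CASP1, CCR1, GIMAP6, CASS4 and NLRP3 were CpG-poor by this measure, whereas LAMP1, DHRS3, NCOA3 and CARS2 were CpG-rich. In the lowest quartile of control width the share under 0.6 was 28.0% of 132 widened and 16% of 2242 other promoters. A CpG-poor start site was thus more frequent here than among other promoters with short control peaks, although most of the widened promoters were above 0.6.

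Motif letters were searched on both strands of the same 300 bases. GAGGAAGT of PU.1 was found in 13 of the 169 promoters (7.69%), compared with 2.50% of all 9490, and in the lowest quartile of control width in 8.33% of 132 and 1.65% of 2242. Of the sequences shown, BCL2A1 has it from −179 and BIRC3 from −162. BCL2A1, an antiapoptotic BCL2 relative of hematopoietic cells, had peaks of 8235 and 7163 bp in ATRA-treated cells and 2735 and 2025 bp in control cells. BIRC3, an inhibitor of apoptosis protein, had 4437 and 3256 bp against 2152 and 1847 bp. None of the 33 promoters whose ATRA peaks joined control peaks held GAGGAAGT, and 12 of the 100 with a single control peak did.

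The ISRE letters (TTTC, any 2 bases, TTTC) were in 10 of the 169 promoters (5.92%, compared with 2.74%), TGANTCA of AP-1 in 13 (7.69%, 4.11%), the kB letters (GGG, any 2 bases, TTTCC) in 7 (4.14%, 2.33%) and TATAAA in 16 (9.47%, 6.0%). TTGCNNAA of C/EBP was in 9.47% (7.43%) and TGTGGT of RUNX in 10.7% (9.92%). The retinoic acid receptor half-site AGGTCA was in 7.69% (10.7%), and the direct repeat of these letters with 5 bases between them was in 0 of the 169 and 0 of the 9490. CCAAT was in 32.5% (37.5%) and GGGCGG of SP1 in 58.0% (67.6%). The letters of PU.1, ISRE, AP-1, kB and TATAAA thus stood above their share of all promoters, and those of GGGCGG below it, and a match does not show that a factor is bound. Some matches, including some of GAGGAAGT, ISRE and kB, are counted for each of 2 genes, because windows of neighboring genes can overlap. The shares were taken over genes and not over loci.

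The promoters nearest to the threshold show how gradual it is. Just inside, XKR7 had 3533 and 3944 bp against 2355 and 1714 bp, PIM1, a serine/threonine kinase, 7302 and 5081 bp against 3383 and 1946 bp, and NICN1 4026 and 5057 bp against 2680 and 2575 bp. Just outside, KATNBL1 had 4321 and 5073 bp against 2893 and 2436 bp, PIK3R5, a regulatory subunit of phosphoinositide 3-kinase, 6671 and 6266 bp against 4199 and 2350 bp, and CYP39A1, a hydroxylase of oxysterols, 3061 and 3115 bp against 2055 and 1418 bp. The ratios ran from 1.49 to 1.5 across these 6 genes.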

How the data were processed

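H3K4me3 and H3K27ac ChIP-seq peaks of HL-60 cells were analyzed. The authors removed adapters (the submitters' processing notes name cutadapt), used Bowtie for alignment to hg19, and ran the broad mode of MACS2 on every library by itself. Input libraries were made, but their use in the call is not given in the sources used here. The deposited −log10 q of each peak was used only as a filter (at least 5). The deposited fold and −log10 p columns hold impossible values and were not used. Read depth is not known, and precision rests on 2 libraries per condition. The TSS was the 5′ end of each protein-coding gene in GENCODE 44 mapped to GRCh37, so alternative start sites were missed in the main count. Peak widths, overlaps (at least 1 bp) and the length under H3K27ac peaks within 5 kb were computed in Python 3.11.15 with numpy 2.4.6 and pandas 2.3.3, and the code was tested on simulated peaks. Genes named were the 12 largest ratios, members of gene lists, the 5 largest H3K27ac rises, any H3K27ac fall, the 3 longest peaks and the 3 nearest the threshold on either side. Genes of the sequence and motif paragraphs were chosen after their values were seen. The promoters, gene lists and settings were chosen with earlier results of these data known. A few genes and lists falling under these choices are left out of the text and figures. Alternatives covered the fold, the filter, joined peaks, scaled widths, start sites, windows, replicate numbers and each library in turn.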

Additional observations from a re-analysis of the deposited data

How the results depend on the processing

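No gene was tested, so values are compared with the counts of 169 wider and 18 narrower promoters. Leaving out each library gave 252 to 1100 wider promoters (1100 without control replicate 1, 438 and 433 without ATRA replicate 1 and 2) and 23 to 151 narrower ones, and the share of loci with more gain on the gene side was 64.8% to 78%. Fewer libraries relax the rule by its construction. A width fold of 1.3 gave 514 and 30, a fold of 2 gave 37 and 5, the −log10 q filter 111 and 11 (without CASP1, GIMAP6, DHRS3, IL4R, CTSA, PIM1 and NICN1, whose peaks did not pass it in all 4 libraries), and scaled widths 93 and 35. When peaks within 1000 bp were joined, 192 promoters were wider, with 133 of the 169 kept, the ATRA peak spanned several control peaks at 52 of the 192, and the ratio of TNF and LTB was reversed at 0.96. With the replicate block, in which the fold had to hold within each replicate number, 266 promoters were wider and 23 narrower. This looser rule holds the 169 by its construction. Deviations of libraries with the same number had a correlation of 0.20 over 9490 promoters for H3K4me3 width and 0.47 over 8898 for H3K27ac length, and their peak names share a tag, but the labels do not state a shared batch and there are only 2 pairs. H3K27ac was higher at 99 to 121 promoters without each H3K27ac library. The smallest differences in share were 71.6% against 61.1% of all promoters without ATRA replicate 1 and 68% against 60.7% without control replicate 2. With the replicate block it was higher at 107 (63.3% against 51.5%), and with the −log10 q filter at 2. Choosing and reading at the same fold, of promoters chosen in number 1, 59.4% passed in number 2 at 1.3 (34.9% of all promoters) and 51.4% at 2 (5.81%). Of those chosen in number 2, 24.8% passed in number 1 at 1.3 (14.6%) and 10.3% at 2 (1.17%). When any start site of a gene could be used, 222 promoters were wider, including GNG2, ASB2, ITGB2 and IFIT3, and 167 of the 169 were kept. Depth is unknown, and its part in peak width was not tested.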
